A study of Caenorhabditis elegans with 4 samples.

Results

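The 10 genes described here encode the dosage compensation complex of Caenorhabditis elegans: sdc-1, sdc-2, sdc-3, dpy-21, dpy-26, dpy-27, dpy-28, dpy-30, mix-1 and capg-1. They were chosen by symbol, and all 10 were found among the 19971 protein-coding genes of the 6 nuclear chromosomes in the gene table used. The readout was the position of MRG-1, a worm chromodomain protein related to human MRG15 and known for its role in the germline, mapped by ChIP-seq, in which chromatin fragments bound by a protein are pulled down with an antibody and sequenced. There were 2 MRG-1 ChIP samples and 2 input samples of DNA without immunoprecipitation, and the inputs are not analysed here. All 4 samples came from fem-2(b245) hermaphrodites kept at 20 °C, whose stage is labelled as a young adult with a germline although the growth protocol speaks of gravid worms. The allele affects a sex-determination gene that male development requires, every sample carried it, and no animals without it are part of the series. Chromatin came from whole worms, so germline and body cells were measured together, and a peak does not say in which of them MRG-1 lay. Whether the replicates were grown as separate cultures is not in the labels.

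Hermaphrodites have a pair of X chromosomes and males have a single one, and the complex binds both X chromosomes of hermaphrodites and lowers their expression to the male level. At its core is a condensin, a ring-shaped machine that compacts and loops chromosomes. MIX-1, DPY-26, DPY-28 and CAPG-1 belong both to this condensin and to condensin I, which acts on all chromosomes in mitosis and meiosis, while DPY-27 takes the place of SMC-4 and is known for dosage compensation alone. SDC-1, SDC-2 and SDC-3 bring the condensin to X, DPY-21 is a demethylase that sets the methylation of histone H4 lysine 20 on X, and DPY-30 is also a subunit of the COMPASS histone methyltransferase. Most of these proteins are loaded into the egg by the mother's germline, whereas sdc-2 is switched on in XX embryos and starts the assembly. Peak lists carry no expression values, so neither this division nor the labelled stage can be checked here.

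Replicate 1 had 2769 peaks over 16.7 Mb, replicate 2 had 3895 peaks over 13.1 Mb, and a list for the whole series had 12147 peaks over 14.8 Mb. The lists hold no read counts, so the depth behind a peak is unknown. The values below are the percent of a gene's annotated span under at least 1 peak, called its coverage. For the genes of a chromosome, the SD after ± is that between the 2 replicates' means, not the spread among genes. Peak positions are those of WormBase WS220. Gene spans come from WBcel235, taken to lie within about 200 bp of WS220, so a gene end closer than this to a peak's edge is not placed in or out of the peak. The table gives no strand, so the ends of a gene are called lower and upper by coordinate, and which of them is the promoter end is not given. The replicates differed in where they called peaks. In some stretches replicate 1 listed nothing while replicate 2 and the series-wide list were dense, and this touches capg-1 and dpy-27 and 4 of the related genes described further on. Below dpy-28 it was replicate 2 that listed nothing, for 31.0 kb, while replicate 1 and the series-wide list had peaks.

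Among the genes of the complex, MRG-1 peaks lay over 6 of 10 in replicate 1, against 30.2% of all protein-coding genes, and over 6 of 10 in replicate 2, against 28.1%. The 5 genes with a peak in both replicates were dpy-21, dpy-26, dpy-28, dpy-30 and mix-1, where the share over all genes was 24.4%. Peaks in a single replicate lay over capg-1 and sdc-1. Neither replicate had a peak over sdc-2, sdc-3 or dpy-27, and neither had one over 66.2% of all genes. The series-wide list had peaks over 8 of the 10, against 32.7% of all genes, and sdc-3 and dpy-27 had none in any list, as did 64.5% of all genes. The median coverage, as the mean of both replicates, was 23.7% over the 10 genes and 0% over all genes. That 0% follows from the 66.2% of genes without a peak in either replicate, and the mean over all genes was 21.8%. The genes of the complex are long, with a median of 7994.5 bp against 2006 bp, and a long gene meets a peak more easily. Of the 9 that span at least 5000 bp, 4 had a peak in both replicates, against 34.3% of all genes of that length. The members' count is therefore not far from that of long genes in general, and what follows describes how the 10 genes differ among themselves.

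**Figure D1:**
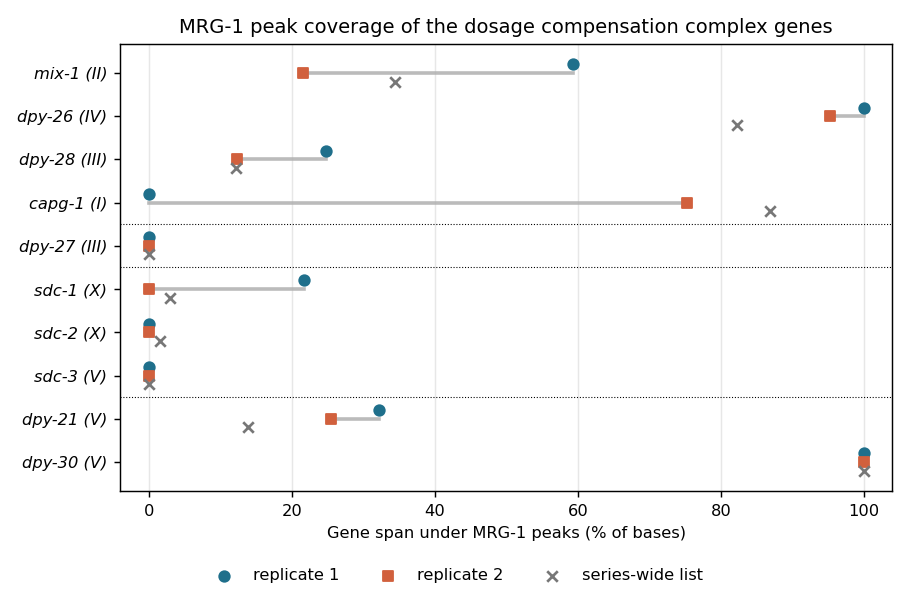
Coverage of each gene of the complex (percent of its span under peaks, horizontal axis) in replicate 1 (circles), replicate 2 (squares) and the series-wide list (crosses), with the chromosome in brackets and a grey line joining the replicates. Dotted lines part the 4 subunits shared with condensin I, dpy-27, the sdc genes, and dpy-21 with dpy-30, and the plot shows dpy-26 and dpy-30 at 95.2% or more in both replicates while dpy-27, sdc-2 and sdc-3 stand at 0% in both.

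By the mean of both replicates the order was dpy-30 (100%), dpy-26 (97.6%), mix-1 (40.5%), capg-1 (37.7%), dpy-21 (28.9%), dpy-28 (18.6%), sdc-1 (10.9%), and then sdc-2, sdc-3 and dpy-27 at 0%. The replicates of dpy-30 and dpy-26 lay above both replicates of every other gene. The replicates of mix-1, capg-1 and dpy-21 overlapped one another in range, with an SD of 26.6 for mix-1 and 53.3 for capg-1 (n = 2 each). Both replicates of dpy-21 lay above both of dpy-28, by little: 25.5% was the lower value of dpy-21 and 24.8% the higher of dpy-28.

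The subunits shared with condensin I all had a peak in at least 1 replicate. Of these 4 genes, 3 were covered in replicate 1 and 4 in replicate 2, and 3 in both. Of the other 6 genes, 3 were covered in replicate 1, 2 in replicate 2 and 2 in both. Over all genes the share in both was 24.4%, and 34.3% over those of at least 5000 bp. The 4 shared subunits are long, with a median of 9740.5 bp, against 7994.5 bp for the other 6. This division follows the known roles of the proteins but was made with the values in view, so the counts are given as a description.

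dpy-26, on IV, encodes the kleisin that closes the condensin ring, and it was covered almost from end to end. Its coverage was 100% in replicate 1 and 95.2% in replicate 2, a mean of 97.6% ± 3.37 (SD, n = 2). The mean over all genes of IV was 24.2% ± 2.76 (SD between the 2 replicates' means). Their median was 0%, and 27.1% had a peak in both replicates. In replicate 1 a single peak of 12301 bp at IV:12442438-12454738 ran over the gene and past both ends, with a score above 62.0% of its list. In replicate 2 the gene lay under 2 peaks, at IV:12445833-12448409 and IV:12448642-12454479, of which the second scored higher, above 83.8% of its list. The series-wide list placed its largest piece in the same upper part. It held 6 peaks over dpy-26, and the one at IV:12448907-12453000, 4094 bp wide, scored above 94.6% of that list. With the gene divided into 3 parts of equal length, the upper part was covered to 100% in every list. The peaks also took in neighbouring genes. The peaks over dpy-26 covered spe-44, a transcription factor gene of sperm development, to 100% in both replicates. On the other side C25G4.3, which overlaps dpy-26 by 84 bp, was covered to 100% by the same peak in replicate 1. In replicate 2 its coverage was 91.2%, but the peaks over dpy-26 gave only 3.62%, and a separate peak gave the rest. On its far side the domain stopped before smz-1, which had no peak in any list.

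mix-1, on II, encodes the SMC2-type ATPase shared by all worm condensins, and in all 3 lists its lower part was the most covered. It is the longest of the 10 genes, at 17179 bp. Coverage was 59.3% in replicate 1 and 21.6% in replicate 2, a mean of 40.5% ± 26.6 (SD, n = 2). The mean over all genes of II was 24.5% ± 2.10 (SD between the 2 replicates' means). Their median was 0%, and 28.1% had a peak in both replicates. The genes of II are far shorter than mix-1, with a median of 1815 bp. Only 12.3% of the gene was covered in both replicates. The strongest peaks entered from the lower side. Replicate 1 had a peak of 15100 bp at II:10814683-10829782 and replicate 2 one of 8578 bp at II:10817326-10825903, and both carried the score 3100, a value that recurs in 554 replicate 1 peaks and 272 replicate 2 peaks. The series-wide peak at II:10817402-10826030 scored above 98.4% of its list. All 3 peaks reached 1.66 kb or more into mix-1 and ran over R06F6.12 and ech-4, which were covered to 100% in both replicates. In the upper part the replicates differed, at 81.3% in replicate 1 and 0% in replicate 2. The series-wide list had 43.1% there, in pieces of at most 647 bp. In the middle part replicate 2 had 24.7% under a peak of 2059 bp, while replicate 1 and the series-wide list had 0%. The upper neighbour M106.8, which overlaps mix-1 by 43 bp, was at 73.5% in replicate 1 and 0% in replicate 2. VM106R.1, a gene lying inside mix-1, stood at 100% in replicate 1 and 0% in replicate 2.

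dpy-28, on III, encodes a HEAT-repeat subunit of the condensin that is also known for a role in meiotic crossover control. Its coverage was 24.8% in replicate 1 and 12.4% in replicate 2, a mean of 18.6% ± 8.80 (SD, n = 2). This lay below the mean of 36.8% ± 0.491 (SD between the 2 replicates' means) over all genes of III and near their median of 16.4%. Of the genes of III, 39.8% had a peak in both replicates. What the replicates shared was a short peak in the middle of the gene. It was at III:10768082-10770326 in replicate 1, 2245 bp wide and above only 7.98% of the list by score, and at III:10768606-10770331 in replicate 2, 1726 bp wide and above 48.5%. These overlapped over 1721 bp. On the lower side replicate 1 had a peak of 28271 bp at III:10736077-10764347, which overlapped 12 protein-coding genes and ended 1.22 kb inside dpy-28. Among those genes were tasp-1, next to dpy-28, and hpl-2, which encodes a heterochromatin protein of the HP1 family. The series-wide list also had this lower side, with tasp-1 covered to 89.9%, whereas replicate 2 had no peak for 31.0 kb below dpy-28. Over the gene the series-wide list had 7 peaks of 168 to 417 bp, on 12.1% of its span. Some lay outside every replicate peak, among them III:10765810-10766092, above 65.9% of that list, and III:10771027-10771443. On the upper side, where ptr-19 is the nearest gene and had no peak, there was none for 29.7 kb or more in any list.

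capg-1, on I, encodes the other HEAT-repeat subunit, and the replicates disagreed on it most. Its coverage was 0% in replicate 1 and 75.3% in replicate 2, and the mean of 37.7% ± 53.3 (SD, n = 2) describes neither. Replicate 2 had a peak of 923 bp at I:7634449-7635371 near the lower end and one of 8789 bp at I:7636678-7645466, which scored above 80.7% of its list. The series-wide list covered 86.9% of the gene, and its peak at I:7637209-7644346 scored above 88.5% of that list. The main peak of replicate 2 ran on over F26A3.1, ncbp-2 and rrf-1, the last an RNA-dependent RNA polymerase gene. On the lower side lrp-1, the megalin gene, lies 348 bp away and had no peak in any list. Replicate 1 listed no peak from I:7574697 to I:7674065, a stretch of 99.4 kb in which replicate 2 had 9 peaks over 47.3% of the bases. Of the 19 protein-coding genes inside it, 15 had a replicate 2 peak. The blank in replicate 1 thus ran over the neighbours of capg-1 as well, and its cause was not tested. Over all of I, 7.33% of genes had a peak in replicate 2 and none in replicate 1, and 7.06% the reverse.

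dpy-27, on III, encodes the SMC4-type ATPase special to dosage compensation, and none of the 3 lists had a peak over it. On III, 40.3% of genes had no peak in any list. The nearest peaks of replicate 2 were 13.0 kb below the gene and 21.5 kb above it, and those of the series-wide list 11.96 kb below and 5.35 kb above. The series-wide peak on the upper side lay in amx-1, covering 5.22% of it, and toh-1 on the lower side had no peak. Replicate 1 again had a blank here, of 175 kb from III:3665349 to III:3840436, where replicate 2 had 7 peaks. The cause of this blank was not tested. The 0% of replicate 1 therefore says little about dpy-27 in particular. The result rests on replicate 2, free of peaks for 40.6 kb around the gene, and on the series-wide list, which is not independent of the replicates.

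**Figure D2:**
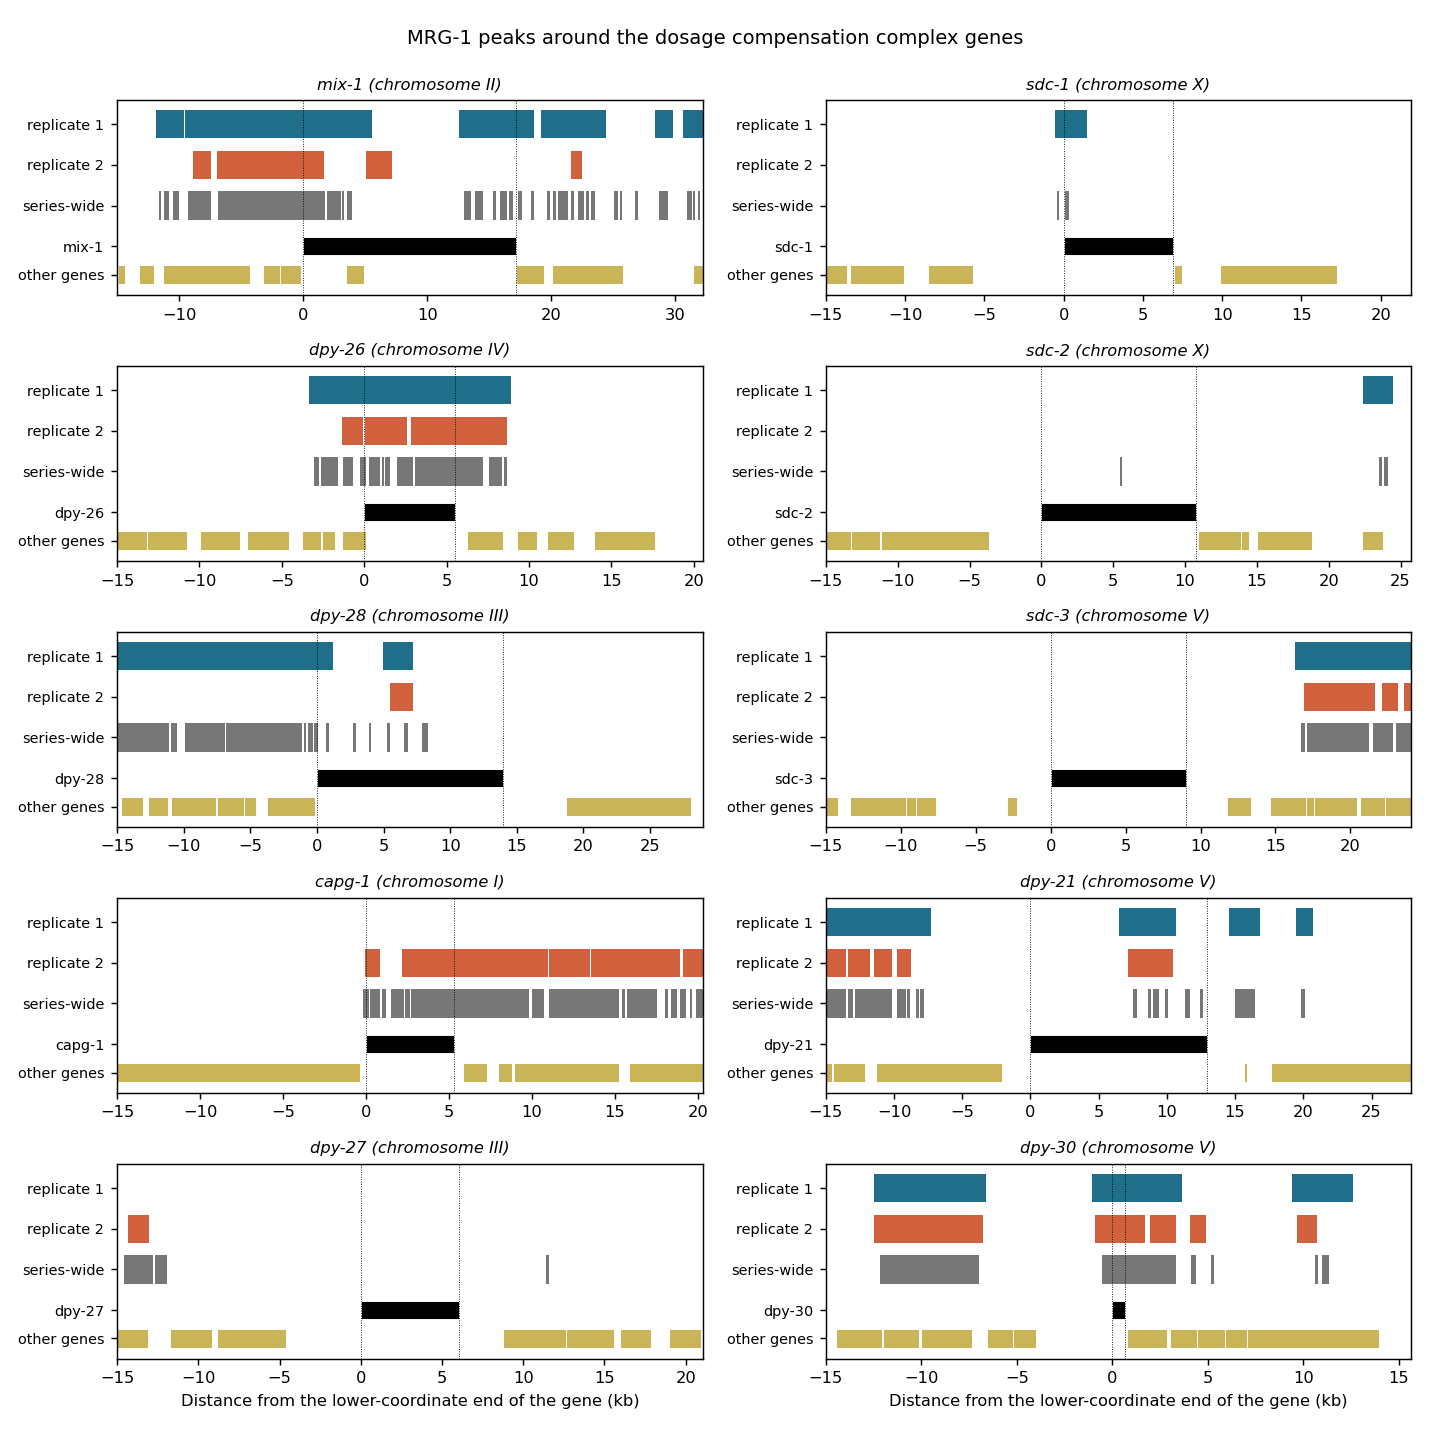
Peaks of replicate 1, replicate 2 and the series-wide list within 15 kb of each gene of the complex, with the gene in black, other protein-coding genes in yellow and the horizontal axis in kb from the gene's lower-coordinate end. Dotted lines mark the ends of the gene, and the maps show peaks that run from dpy-26, dpy-30, mix-1 and capg-1 into neighbouring genes, a peak inside dpy-21, and none over dpy-27 or sdc-3.

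The sdc genes, whose products recruit the condensin to X, had a single peak between them in the replicate lists, at sdc-1 in replicate 1. sdc-3, on V, encodes a zinc finger protein, and it had no peak in any list. It lay in a stretch free of peaks in every list, of 48.1 kb in replicate 1 and 49.6 kb in replicate 2. Of the 9 protein-coding genes within the replicate 1 stretch none had a replicate 2 peak. Its neighbours melo-3 and fbxa-82 were at 0% in all 3 lists. The nearest peaks began 7.24 kb above it in replicate 1 and 7.85 kb above it in replicate 2. On V, where 78.2% of genes had no peak in any list, this was the commoner state.

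sdc-2 and sdc-1 are themselves on the X chromosome, where peaks were rare. On X, 8.61% of genes had a peak in replicate 1, 1.25% in replicate 2 and 1.14% in both. sdc-2, which encodes the protein that starts assembly of the complex on X, had none in either replicate. In replicate 2 it lay in a peak-free stretch of 1448 kb, and in replicate 1 in one of 237 kb. The series-wide list had 1 peak within it, of 170 bp at X:11528176-11528345, with a score above 26.9% of its list. sdc-1, another zinc finger gene, stood at 21.7% in replicate 1 and 0% in replicate 2, a mean of 10.9% ± 15.4 (SD, n = 2). The replicate 1 peak, at X:16275187-16277267, lay over the lower end of the gene and scored 51.11, above only 0.325% of the list, whose lowest score is 50.04. Within that peak the series-wide list had a 208 bp peak at X:16275879-16276086, above only 11.5% of its list. It had another there outside sdc-1, 0.274 kb beyond the gene's lower end. The nearest protein-coding neighbours of both genes, ifa-3 and F52E10.2 for sdc-1 and hpo-34 and C35C5.8 for sdc-2, had no peak in any list.

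dpy-21, on V, the demethylase gene, carried a peak inside its span and none at its ends. Coverage was 32.3% in replicate 1 and 25.5% in replicate 2, a mean of 28.9% ± 4.78 (SD, n = 2). The mean over all genes of V was 13.4% ± 2.13 (SD between the 2 replicates' means). Their median was 0%, and 16.1% had a peak in both replicates. At 12912 bp dpy-21 is far longer than the median gene of V, of 1744 bp, so these shares are not matched for length. The peak was at V:17942769-17946934 in replicate 1 and at V:17943416-17946708 in replicate 2, and the second lay wholly inside the first. By score it stood above 21.1% of the list in replicate 1 and 51.5% in replicate 2. The lower part of the gene and the 1 kb on either side were at 0% in both replicates. The series-wide list had 6 peaks of 173 to 462 bp over the gene, all in its middle and upper parts, which covered 13.9% of it. Of these, 4 lay within the replicate 1 peak and the other 2 above it, and the highest-scoring of the 6, at V:17947602-17948009, was outside the peaks of both replicates. Its lower neighbour usp-50 was covered to 43.4% and 23.3% in replicates 1 and 2 by other peaks. For the upper neighbour Y59A8B.24, of 201 bp, the values were 100% in replicate 1 and 0% in replicate 2.

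dpy-30, on V, was the gene of the complex with the least doubt about its coverage, at 100% in both replicates. The series-wide list, which is not independent of them, also gave 100%. dpy-30 is by far the shortest of the 10 genes, at 659 bp, and a gene this short is readily covered whole by 1 peak. The peaks were at V:12190442-12195191 in replicate 1 (4750 bp) and V:12190591-12193244 in replicate 2 (2654 bp), and they scored above 78.8% and 80.1% of their lists. The replicate 1 peak carried the tied score 3100, held by 554 peaks of that list, so the percents are not like ranks. Both peaks extended about 1 kb beyond the lower end of dpy-30 and ran over rnp-1. This RNA-binding protein gene lies 95 bp beyond the upper end of dpy-30. The peak over dpy-30 covered rnp-1 to 100% in replicate 1 and 46.4% in replicate 2, where a further peak brought the total for rnp-1 to 88.6%. On the lower side ZK863.8 and srd-4, the latter in the chemoreceptor family, had no peak in any list, and the next peak lay 6.6 kb away in replicate 1 and 6.77 kb away in replicate 2.

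Neighbours of the genes were set beside them to see how far the peaks belonged to the genes alone. Of the 40 genes that are the 2 nearest on each side of a gene of the complex, 16 had a peak in replicate 1, 12 in replicate 2, 10 in both and 22 in neither. Over all genes the shares were 30.2%, 28.1%, 24.4% and 66.2%. The counts in replicate 2 and in both were close to these, while more neighbours had a replicate 1 peak and fewer had none. At dpy-26, mix-1 and dpy-30 a peak over the gene also overlapped at least 1 nearest neighbour in both replicates. At dpy-21, and at the middle of dpy-28, the peak overlapped no other protein-coding gene in either replicate. Within the 10 kb on each side, mean coverage ran from 64.6% at mix-1 and 43.1% at dpy-30 to 1.44% at sdc-1 and 0% at sdc-2 and dpy-27. The 12.3% at sdc-3 came from peaks that began 7.24 kb or more above it, over C25D7.5 and the genes beyond.

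**Figure D3:**
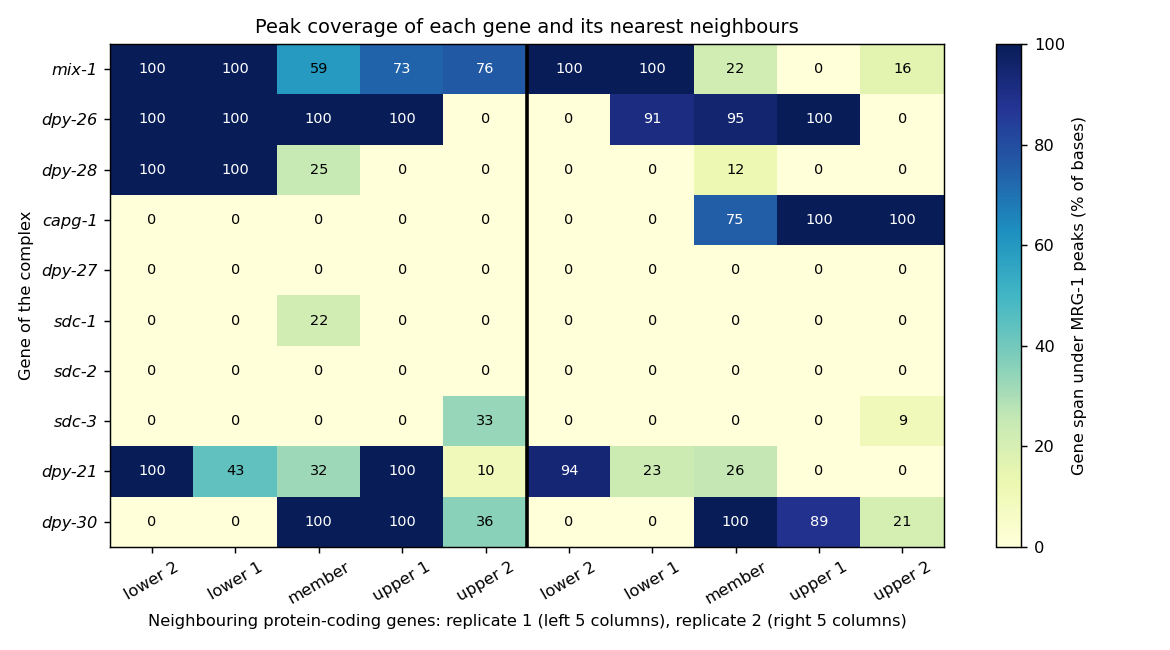
Percent of the span under peaks (colour and number in each cell) for each gene of the complex and its 2 nearest protein-coding neighbours on the lower and upper side, with replicate 1 in the left 5 columns and replicate 2 in the right 5. Rows of dpy-26 and dpy-30 are dark on both sides with a covered neighbour beside them, the dpy-27 and sdc-2 rows are at 0 throughout, and capg-1 with its upper neighbours is filled in replicate 2 alone.

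Other genes of the pathway were mostly either covered over much of their span or not covered at all. The list held 19 genes, in 5 groups by role: other condensin subunits, COMPASS and related methyltransferase genes that share DPY-30, H4K20 methyltransferases, xol-1 with the X and autosomal signals that act on it upstream of sdc-2, and her-1, a target of the SDC proteins. Of the 19, 9 had a peak in replicate 1, 12 in replicate 2, 8 in both and 6 in neither, beside 30.2%, 28.1%, 24.4% and 66.2% of all protein-coding genes.

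The other condensin subunits were widely covered, with peaks over 3 of 4 in both replicates, beside 24.4% of all genes. That share was 34.3% over genes of at least 5000 bp, and 39.8% over genes of III, where smc-4 and kle-2 lie. smc-4, the partner of MIX-1 in condensins I and II, stood at 0% in replicate 1 and 100% in replicate 2. hcp-6, capg-2 and kle-2 encode the condensin II subunits, and all 3 had peaks in both replicates. Their coverage was 100% and 100% for hcp-6, 100% and 69.1% for capg-2, and 100% and 80.2% for kle-2, in replicates 1 and 2. The replicate 1 peak over hcp-6, 28771 bp wide, scored 54, above only 1.41% of the list, whose lowest score is 50.04. In replicate 2 the peak over hcp-6 scored above 78.8% of its list. The median of the 4 other condensin subunits by the mean of both replicates was 87.3%, against 39.1% for the 4 that the complex shares with condensin I. The former are also shorter genes, with a median of 4750.5 bp against 9740.5 bp, and a short gene is more readily covered whole. With 4 genes in each, the difference in coverage was not tested. dpy-27 and smc-4 encode alternative SMC4-type subunits and are both on III. dpy-27 was at 0% and smc-4 at 100% in replicate 2. The series-wide list, which is not independent of replicate 2, gave the same 0% and 100%. In replicate 1 both genes lay in blank stretches, of 175 kb and 87.7 kb.

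The 6 genes of COMPASS and the MLL-like complex all had peaks in replicate 2, and 4 of the 6 had them in both, beside 28.1% and 24.4% of all genes. These genes have a median of 6953 bp, and the share in both was 34.3% over genes of at least 5000 bp. It was 39.8% over genes of III, where set-2, set-16 and wdr-5.1 lie. rbbp-5, cfp-1, set-16 and ash-2 were covered to 100%, 100%, 99.9% and 96.1% in replicate 1, and to 90.5%, 92.9%, 80.9% and 50.4% in replicate 2. wdr-5.1 and set-2, the SET1-type methyltransferase gene, stood at 0% in replicate 1 and at 100% and 99.1% in replicate 2. The set-2 blank in replicate 1 was 76.3 kb long, and replicate 2 covered 75.9% of it. wdr-5.1 lay in the same 175 kb blank as dpy-27. The 2 methyltransferase genes for histone H4 lysine 20, whose mark DPY-21 acts on, also had peaks. With 1 of the 2 covered in both replicates, the count is too small to set beside the 24.4% of all genes. set-4 was covered to 100% in both replicates, and set-1 to 100% in replicate 2 and 0% in replicate 1, in a blank of 183 kb.

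Upstream and downstream of sdc-2 there were few peaks. xol-1, the switch gene that turns sdc-2 off in male embryos, had no peak in any list. Nor did sex-1 and fox-1, which are X signal elements, genes whose dose tells the embryo how many X chromosomes it has and which repress xol-1. ceh-39, a homeodomain gene and another X signal element, stood at 100% in replicate 1 and at 0% in replicate 2, with 45.1% by the series-wide list. The autosomal signals sea-1 and sea-2, both on II, had no peak in any list. her-1, on V, encodes a secreted male-determining protein that the SDC proteins silence in hermaphrodites, and it too had none. The peaks nearest to her-1 were 1.82 kb below and 1.73 kb above it in replicate 1. Of these 7 genes 4 are on X, where peaks were rare, so the chromosome and the role cannot be told apart for them, while sea-1, sea-2 and her-1 are autosomal. On the autosomes 60.5% of all genes had no peak in any list.

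**Figure D4:**
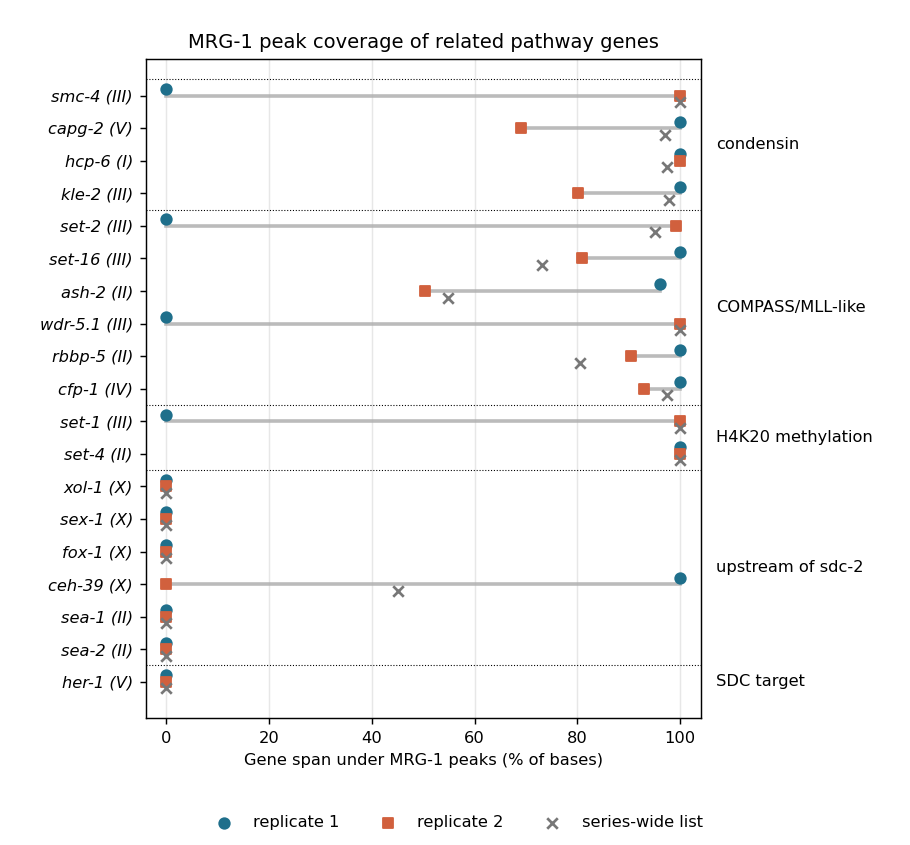
Coverage of the 19 related genes (percent of span under peaks, horizontal axis) in replicate 1 (circles), replicate 2 (squares) and the series-wide list (crosses), grouped by role and with the chromosome in brackets. All 12 condensin, COMPASS/MLL-like and H4K20 genes are covered to at least 50.4% in replicate 2, 4 of them stand at 0% in replicate 1, and 6 of the 7 signal and target genes stand at 0% in all lists.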

How the data were processed

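The 2 replicate lists and the series-wide list of MRG-1 peaks were used. The submitters' processing notes name BWA and ce10 for the alignment. Positions are on WormBase WS220, per the file headers, and the files' source column names MACS for the replicates and MACS v2 for the series-wide list. For versions, thresholds, use of the input and pooling, settings were not given in the sources used here. The authors deposited a score for each peak without a definition, and it was used only to rank peaks within a list. Scores tie at 3100.

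Coverage was the percent of a span under at least 1 peak, and an overlap needed 1 bp. Spans and names came from the RefSeq table of WBcel235, with protein-coding genes only. The offset of about 200 bp between builds was not checked against a WS220 annotation. Each gene was also divided by coordinate into a lower, a middle and an upper part of equal length. Neighbours were ordered by distance beyond each end. No test was run, since no second group has values. Coverage was checked on 20 simulated lists. Python 3.11.15, numpy 2.4.6, pandas 2.3.3 and matplotlib 3.10.9 were used.

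The 10 members, the related lists and the alternatives were chosen with earlier results of these data known. All members, all related genes and the nearest neighbour on each side were to be named. Other genes in the text lie under the same peaks or next in order, and were named after their values were seen. Gene starts and promoter letters, both planned, were not analysed here, as the table has neither strand nor sequence.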

Additional observations from a re-analysis of the deposited data

How the results depend on the processing

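The 5 genes of the complex with a peak in both replicates stayed at 5 when spans were shifted by 200 bp either way or had 1 kb added on each side. The count was 6 in either replicate alone. It was 2 when at least 50% of the span had to be covered and 3 with the top 50% of each list by score. In the series-wide list it was 8, against 32.7% of all genes. For the 50% of span and top 50% settings no share over all genes is given, so those counts are not placed as high or low. The median coverage of 23.7% ran from 17.0% to 23.3% when a replicate was left out. It was 6.38% with the top 50% by score and 13.0% in the series-wide list, and shifts of 200 bp or joining peaks over 1 kb moved it by less than the spread between replicates. Fewer peaks, or narrower ones, cover less by construction. With the top 50% by score dpy-28 was at 0% and dpy-21 at 12.8%, against 28.9% with all peaks, and neither had a peak in both replicates, which left dpy-26, dpy-30 and mix-1. For the related genes, 8 were covered in both replicates, also at 50% of the span, 12 without replicate 1 and 9 without replicate 2, the last 2 settings added after the data were seen. Over all genes the shares were 24.4% in both, 28.1% in replicate 2 and 30.2% in replicate 1, with none given at 50% of the span. Median coverage beside the genes was 21.4% for 10 kb on each side and 18.2% for 5 kb. No paired analysis was possible because no values of the inputs were analysed here. Settings for gene starts were not run, as the gene table has no strand. Depth is unknown, so whether more reads would add peaks over sdc-2, sdc-3 or dpy-27 cannot be read from these lists.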
